A study of Mus musculus with 6 samples.

Results

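The genes described here are 35 genes of the centromere, the kinetochore and the spindle checkpoint, taken by symbol (older aliases included) from the array's annotation. All 35 were found, with 73 probe sets, among 18193 genes that the array measured. A gene's value is that of its probe set with the highest mean over the 6 arrays, and by that value all 35 lay above the background level of log2 6.02, which is the level under which 95% of the probe sets for olfactory and vomeronasal receptors fell. RNA came from CT26 cells, a colon carcinoma line of BALB/c mice. The shSep15 group is 3 samples of cells transfected with the pU6-m3 vector carrying 1 short hairpin RNA against Sep15 (Selenof), a selenoprotein of the endoplasmic reticulum, and the control group is 3 samples transfected with the empty vector. The hairpin was built on a 19-nucleotide stretch of the Sep15 cDNA, which sets the shSep15 group apart from the control group.
Sep15 target: acagaagagttccatttaa
Each sample was read on 1 Affymetrix Mouse430_2 array, and the study asked how colon carcinoma cells with little Sep15 differ from control cells. With 1 hairpin, differences between constructs are not covered, and the labels leave unsaid if clones or pools of transfected cells were used and if the samples of a group grew as separate cultures. What the p-values weigh is thus the spread between these samples, which may be technical.

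The kinetochore is the protein structure that joins a chromosome to the microtubules of the mitotic spindle. It is built on centromeric nucleosomes that hold CENP-A in place of histone H3. On them sits the constitutive centromere associated network, the inner kinetochore, and on that the KMN network (the KNL1, MIS12 and NDC80 complexes), whose NDC80 complex binds the microtubule. Kinetochores that are not attached recruit the spindle checkpoint proteins, which hold Cdc20, the activator of the anaphase-promoting complex, inactive until every chromosome is attached. Many of these genes are transcribed mostly from late S phase to mitosis, so that cultures with more dividing cells hold more of their RNA.

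The hairpin's target gave the check of the labels. Selenof read 9.34, 9.59 and 9.50 (log2) on the shSep15 arrays, against 12.41, 12.44 and 12.35 on the control arrays, so that 13.2% of the control signal was left (limma adjusted p = 2.43e-07). The array medians lay between 5.83 and 5.87. A probe set for 18S ribosomal RNA stood apart on control 3, at 8.30 against 6.01 to 6.53 on the other arrays, and the interferon-stimulated gene Usp18 (picked once its values were known) stood apart on shSep15 3, at 10.69 against 6.16 to 7.58 on the others. The counts over the 35 members are given below with and without these arrays. Of 10 colon epithelial markers 4 were above background, among them Epcam, whereas Cdh1, Vil1 and Cdx2 were not; 3 fell in shSep15 cells and 0 rose. Their summed linear signal was 524 to 622 on the shSep15 arrays and 893 to 1057 on the control arrays. All 8 fibroblast and mesenchymal markers were above background by their mean over the 6 arrays, with 4 that rose and 3 that fell. The 4 rose by 0.23 to 1.35. Pdgfrb differed by -3.36, from a control mean of 9.05 to 5.69, under the background level, Col3a1 by -2.27 and Dcn by -1.72. The sums of the 8 were 25834 to 28923 on the shSep15 arrays and 23409 to 24814 on the control arrays. Such linear sums weigh bright genes most, here Vim (13.66 against 13.43). Of 7 leukocyte markers 4 were above background and 3 fell, with sums of 442 to 497 on the shSep15 arrays and 548 to 664 on the control arrays, and the defining leukocyte gene Ptprc stayed under background on all 6 arrays. The sums of the 5 endothelial markers were 196 to 210 on the shSep15 arrays and 200 to 204 on the control arrays. The part of these markers in the results below was not tested.

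Most of the kinetochore genes were higher in shSep15 cells. Of the 35 genes, 23 rose and 1, Nsl1, fell, and 11 did not pass the test (limma moderated test, Benjamini-Hochberg adjusted p under 0.05). That is 65.7% of the members called higher. Over all 18193 genes, 12.2% were higher and 12.8% were lower, and among the 10876 genes above background the shares were 19.3% and 19.8%. By size, 11 members rose by a log2 of at least 1, that is at least 2-fold, as did 2.34% of all genes and 3.71% of those above background. The median difference over the 35 members was a log2 of 0.73, against 0.01 over all genes. In 28 members every shSep15 array lay above every control array, a separation seen in 19.3% of all genes; the share was 27.9% above background. In 2, Nsl1 and Zwint, the shSep15 arrays all lay below the lowest control array, as they did in 18.7% of all genes and 27.2% of those above background. Set against the control means, the members had median deviations of 0.94, 0.61 and 0.69 on the shSep15 arrays (1, 2 and 3), and these ran from -0.04 to 0.07 on the control arrays. Without shSep15 3, 21 members were higher and 0 lower, and without control 3, 23 were higher and 0 lower. In RNA of whole cultures, more cells in mitosis and more transcript per cell cannot be told apart.

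**Figure D1:**
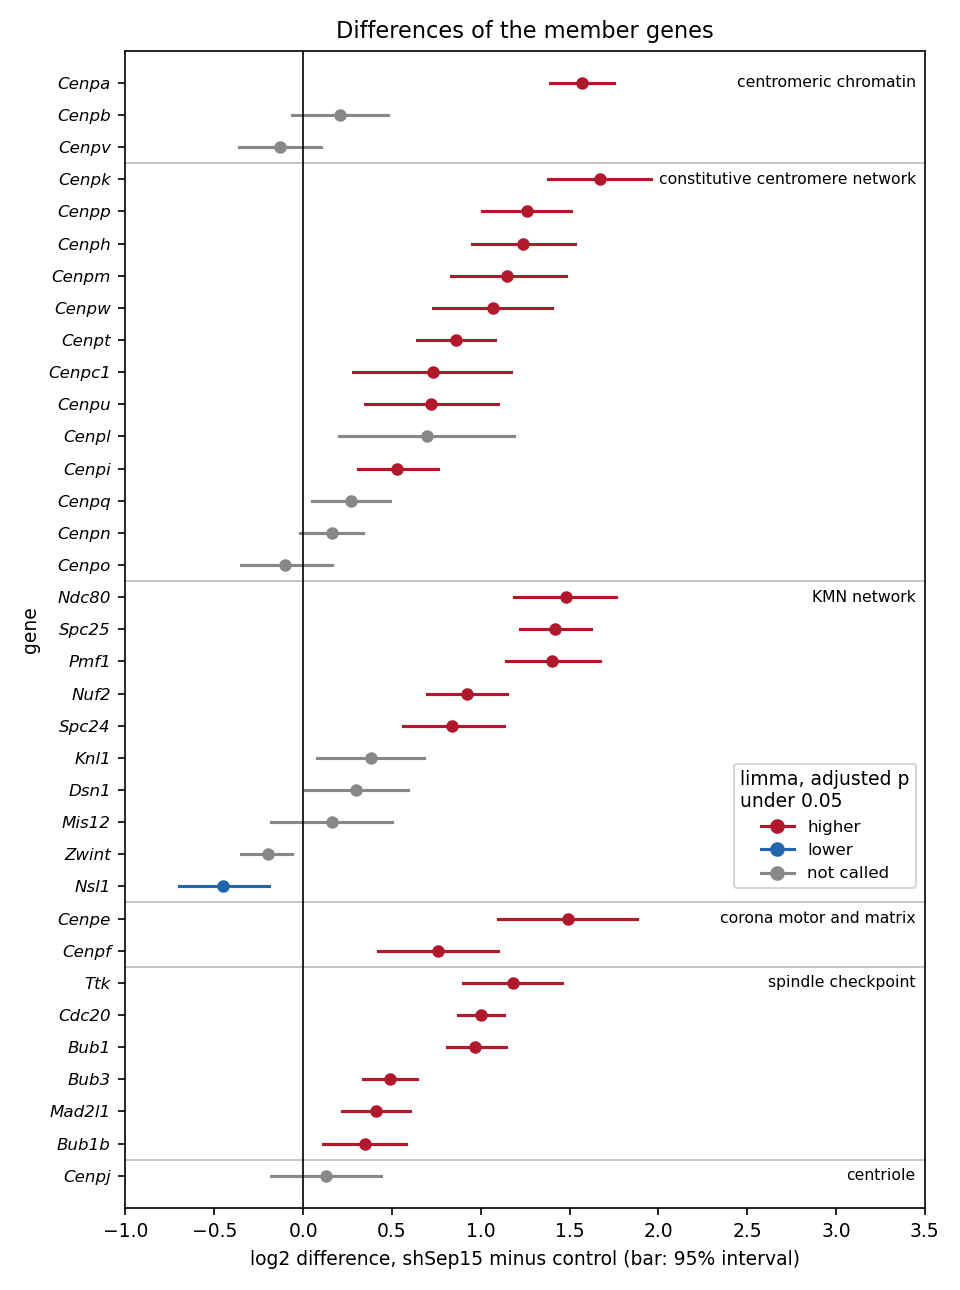
Log2 difference between shSep15 and control cells for each of the 35 genes (x axis; dot, estimate; bar, 95% interval of the limma fit on 3 arrays per group), grouped by role from the centromere outward. The 23 red genes passed the test as higher, with differences of 0.35 to 1.67; Nsl1, in blue, is the 1 gene called lower, and the 11 grey genes were not called.

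**Figure D2:**
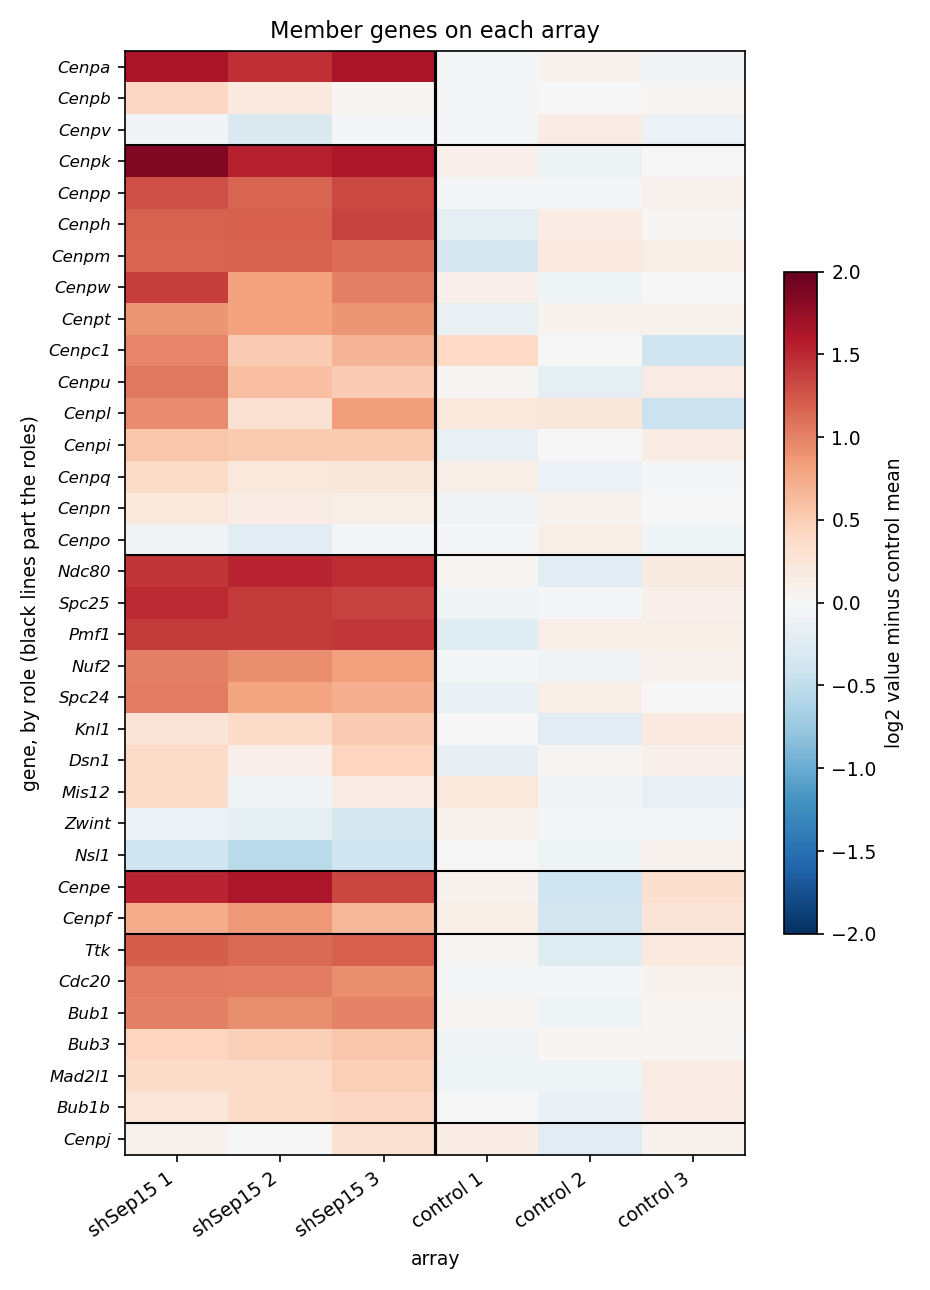
Each gene's log2 value minus its control mean (colour) on the 3 shSep15 arrays, left, and the 3 control arrays, right, with genes grouped by role. Over all 35 genes the median deviations on the shSep15 arrays were 0.94, 0.61 and 0.69; the 23 genes called higher are red and Nsl1 is blue in all 3 of these columns, while Cenpb, Cenpv, Cenpo, Mis12 and Cenpj show overlapping groups.

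Promoters of 33 of the 35 members are in the RefSeq promoter table of build GRCm38.p6, which holds 250 bases before and 50 after each start; Nsl1 and Spc24 are not in it. Genes of late S phase and mitosis are known for the cell cycle genes homology region (CHR), bound by the DREAM and MuvB complexes, often downstream of CCAAT boxes, bound by NF-Y. The searched letters were TTTGAA and TTCGAA for the CHR, CCAAT for the CCAAT box and for E2F sites TTCCCGC and also TTGGCGC, further TTGCCGC and lastly TTCGCGC, on both strands; TTCGAA reads the same on both, and a reverse CCAAT box can overlap the E2F letters TTGGCGC. The promoters below are those of 5 called members that hold the CHR letters near the start and CCAAT boxes before it, and of Zwint, which was not called and holds CCAAT boxes only. They are picked examples: Cenpl and Cenpn, also not called, hold both CHR and CCAAT letters. Capitals mark the matches.
Cenpa (chr5:30666636-30666935, plus strand): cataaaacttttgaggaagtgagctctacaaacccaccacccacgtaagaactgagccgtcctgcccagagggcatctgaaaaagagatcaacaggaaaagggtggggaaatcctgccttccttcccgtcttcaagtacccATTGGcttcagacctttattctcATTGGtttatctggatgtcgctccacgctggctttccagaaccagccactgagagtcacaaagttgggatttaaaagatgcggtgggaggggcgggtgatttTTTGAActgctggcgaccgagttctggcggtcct
Spc25 (chr2:69206164-69206463, minus strand): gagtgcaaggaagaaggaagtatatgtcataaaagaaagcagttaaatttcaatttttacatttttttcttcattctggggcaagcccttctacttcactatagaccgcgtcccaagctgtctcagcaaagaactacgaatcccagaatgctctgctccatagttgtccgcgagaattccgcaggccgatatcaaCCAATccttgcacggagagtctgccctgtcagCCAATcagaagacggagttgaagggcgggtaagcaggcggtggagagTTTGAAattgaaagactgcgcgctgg
Bub1 (chr2:127831810-127832109, minus strand): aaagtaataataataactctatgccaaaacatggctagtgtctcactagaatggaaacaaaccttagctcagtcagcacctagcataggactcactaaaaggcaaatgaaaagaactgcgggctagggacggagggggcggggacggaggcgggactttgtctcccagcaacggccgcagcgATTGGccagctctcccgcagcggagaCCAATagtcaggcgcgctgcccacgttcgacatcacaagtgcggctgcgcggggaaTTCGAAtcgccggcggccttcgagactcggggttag
Ttk (chr9:83834439-83834738, plus strand): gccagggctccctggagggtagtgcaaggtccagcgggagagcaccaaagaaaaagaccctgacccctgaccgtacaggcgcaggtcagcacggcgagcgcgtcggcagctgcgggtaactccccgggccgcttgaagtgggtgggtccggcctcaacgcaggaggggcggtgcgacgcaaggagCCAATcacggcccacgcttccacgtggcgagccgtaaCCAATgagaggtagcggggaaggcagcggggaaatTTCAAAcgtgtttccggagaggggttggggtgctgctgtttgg
Cdc20 (chr4:118437294-118437593, minus strand): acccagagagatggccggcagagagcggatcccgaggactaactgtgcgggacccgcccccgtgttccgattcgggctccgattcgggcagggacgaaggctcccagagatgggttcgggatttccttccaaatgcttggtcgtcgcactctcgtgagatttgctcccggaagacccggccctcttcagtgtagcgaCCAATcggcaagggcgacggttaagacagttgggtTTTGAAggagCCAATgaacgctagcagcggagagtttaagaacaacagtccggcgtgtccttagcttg
Zwint (chr10:72654596-72654895, plus strand): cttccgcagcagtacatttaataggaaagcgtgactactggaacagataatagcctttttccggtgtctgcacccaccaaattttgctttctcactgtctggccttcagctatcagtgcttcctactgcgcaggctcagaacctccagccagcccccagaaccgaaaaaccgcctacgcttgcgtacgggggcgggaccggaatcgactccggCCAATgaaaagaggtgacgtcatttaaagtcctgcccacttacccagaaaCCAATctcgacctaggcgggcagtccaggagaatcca
Counted from the first base after the start, the CHR letters begin at position 17 in Cenpa, 25 in Spc25, 15 in Bub1 and 8 in Ttk, and at -18 in Cdc20. The nearest CCAAT letters upstream of them begin at -86 in Cenpa, -23 in Spc25, -42 in Bub1, -28 in Ttk and -53 in Cdc20.

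Of the 33 genes, 15 (45.5%) held CHR letters, against 21.7% of the 27025 genes in the table and 16.1% of the 8830 of these that lay above background. CCAAT letters were found in 22 (66.7%), against 41.1% and 42.9%, and both kinds in 13 (39.4%), against 8.61% and 6.69%. E2F letters were found in 9 (27.3%), against 10.9% and 19.9%. Among the 22 members with a promoter that rose, 12 held CHR letters and 11 held both kinds; among the 11 that did not rise, 3 and 2 did. E2F letters stood in 4 of the 22 and in 5 of the 11. Of the members that rose, Cenpp, Cenpt, Mad2l1 and Nuf2 held none of the 3 kinds of letters in this window. These counts describe letters in a window, and the difference between the members that rose and the others was not tested.

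**Figure D3:**
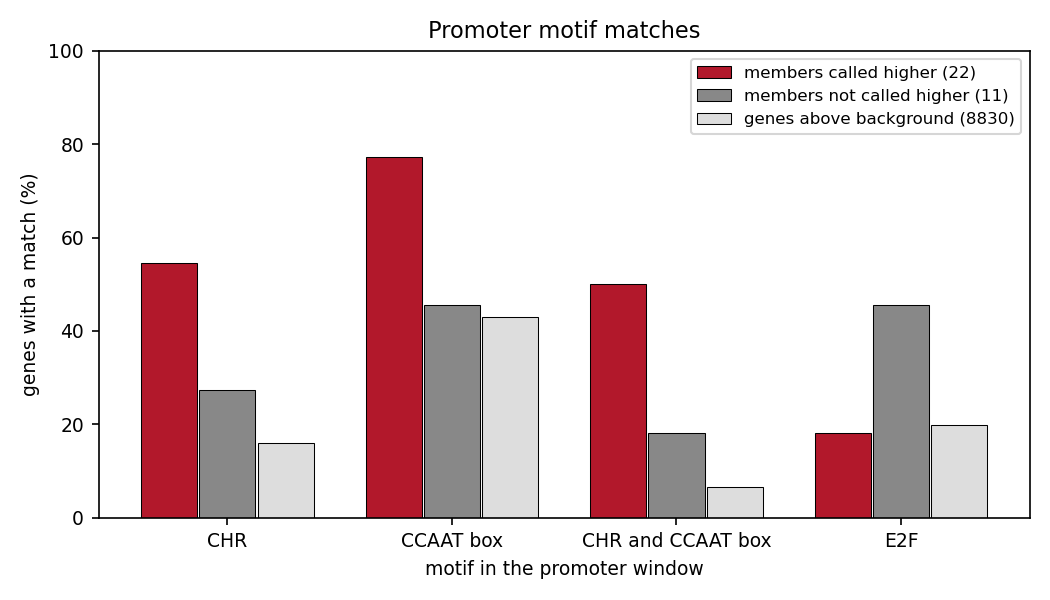
Percentage of genes (y axis) whose promoter window holds CHR letters, a CCAAT box, both, or E2F letters (x axis), for the 22 members called higher, the 11 other members with a promoter and 8830 genes above background. CHR and CCAAT letters together stand in 50% of the members called higher, 18.2% of the others and 6.69% of the genes above background.

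At the centromere itself, the histone rose and the other chromatin proteins did not pass the test. Cenpa, the H3 variant that marks the centromere, read 11.68, 11.51 and 11.68 on the shSep15 arrays and 10.03, 10.12 and 10.00 on the control arrays. The groups lay far apart relative to their spread, and the log2 difference was 1.57 (SE 0.08, limma adjusted p = 3.75e-06), a 2.97-fold rise; its promoter is the first of those printed above. A dimmer Cenpa probe set, at 7.19 against 6.80, was not called (log2 0.39, limma adjusted p = 0.132). Cenpb, which binds a box in centromeric satellite DNA, differed by 0.21 (95% interval -0.06 to 0.48), and Cenpv, known in human cells for its role at pericentromeric chromatin, by -0.13 (-0.36 to 0.10). Their groups overlapped.

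In the constitutive centromere associated network, 9 of 13 members rose and 0 fell, with a median of 0.73. Its CENP-HIKM group moved as a whole: Cenpk, Cenph, Cenpm and Cenpi all rose. Cenpk read 8.72, 8.40 and 8.48 on the shSep15 arrays, against 6.97, 6.76 and 6.86 on the control arrays, a difference of 1.67 (SE 0.13, limma adjusted p = 3.03e-05) and the greatest among the 35 genes on their brightest probe sets. Cenph read 8.19, 8.20 and 8.36 in shSep15 cells and 6.83, 7.16 and 7.03 in control cells (1.24, SE 0.13, limma adjusted p = 0.000161). Every shSep15 array lay over 1 log2 unit above every control array for both genes. Cenpm read 9.16, 9.17 and 9.12 in shSep15 cells, against 7.68, 8.19 and 8.13 in control cells (1.15, SE 0.14, limma adjusted p = 0.000482), and Cenpi, at 10.02 ± 0.01 against 9.49 ± 0.15 (SD, n = 3 each), rose by 0.53 (limma adjusted p = 0.00427).

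The histone-fold subunits of the network rose too. Cenpw, the histone-fold partner of Cenpt, read 10.11, 9.54 and 9.73 in shSep15 cells, against 8.83, 8.64 and 8.71 in control cells (1.07, SE 0.15, limma adjusted p = 0.00086). Cenpt, whose long tail recruits the NDC80 complex, was at 10.02 ± 0.05 against 9.16 ± 0.13 (SD, n = 3 each), higher by 0.86 (limma adjusted p = 0.000292). Cenpc1 encodes CENP-C, which binds CENP-A nucleosomes and the MIS12 complex; it rose by 0.73 (SE 0.20, limma adjusted p = 0.0311), with control arrays spread from 8.50 to 9.30. That call ended without any 1 of shSep15 1, 2 and 3 and control 2 and 3 (limma adjusted p = 0.123, 0.0501, 0.0922, 0.0958 and 0.0842).

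The CENP-OPQUR group was split. Cenpp read 7.25, 7.13 and 7.28 in shSep15 cells, against 5.92, 5.92 and 6.05 in control cells, a mean under the background level, so that the size of its rise (1.26, SE 0.11, limma adjusted p = 6.65e-05) is not exact. Cenpu, which in human cells docks the kinase Plk1, rose by 0.72 (SE 0.16, limma adjusted p = 0.0127), a call that ended without control 2 (difference 0.63, limma adjusted p = 0.0594). Cenpo differed by -0.10 (95% interval -0.35 to 0.16) and Cenpq by 0.27 (0.05 to 0.49, limma adjusted p = 0.0888), neither past the threshold. The CENP-LN pair was not called either: Cenpn, which reads the CENP-A nucleosome, differed by 0.16 (-0.02 to 0.34), and Cenpl by 0.70 (0.20 to 1.19, limma adjusted p = 0.0582), with shSep15 arrays at 8.35, 7.71 and 8.25 and control arrays at 7.61, 7.64 and 6.97. Cenpl passed without shSep15 2 (difference 0.89, limma adjusted p = 0.0318). With all 6 arrays it also passed in the fit of gene means (limma adjusted p = 0.0399). It passed too when only probe sets above background were tested (limma adjusted p = 0.0316). Its call thus depends on the arrays and on which probe sets are tested.

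In the outer kinetochore the 4 subunits of the NDC80 complex rose together, while those of the MIS12 complex went different ways. Ndc80 and Nuf2 carry the end of the rod that grips the microtubule. Ndc80 read 8.91, 9.01 and 8.95 in shSep15 cells, against 7.53, 7.26 and 7.65 in control cells, and the groups were well apart (1.48, SE 0.13, limma adjusted p = 6.23e-05). Nuf2 was at 9.76 ± 0.09 in shSep15 cells and 8.84 ± 0.08 in control cells (SD, n = 3 each), higher by 0.92 (limma adjusted p = 0.000217). Spc24 and Spc25 form the other end, which docks on the inner kinetochore. Spc25 read 10.74, 10.65 and 10.60 in shSep15 cells, against 9.19, 9.20 and 9.35 in control cells (1.42, SE 0.09, limma adjusted p = 1.12e-05); its promoter is among those printed above. Spc24 rose by 0.84 (SE 0.13, limma adjusted p = 0.00135).

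Of the MIS12 complex, which bridges the inner kinetochore and the NDC80 complex, Pmf1 rose, Nsl1 fell and Mis12 and Dsn1 were not called. Pmf1 read 10.12, 10.12 and 10.14 in shSep15 cells, against 8.49, 8.85 and 8.84 in control cells (1.40, SE 0.12, limma adjusted p = 4.98e-05), and its other probe set gave 1.23. Nsl1 read 7.35, 7.21 and 7.36 in shSep15 cells, against 7.76, 7.66 and 7.83 in control cells, and the groups did not overlap. The difference was -0.45 (SE 0.11, limma adjusted p = 0.0208), but its other probe set differed by 0.18 (limma adjusted p = 0.626), and the call ended without shSep15 2 or 3 or control 1 or 3 (limma adjusted p = 0.0722, 0.0535, 0.0563 and 0.0556). Mis12 differed by 0.16 (95% interval -0.18 to 0.50) and Dsn1 by 0.30 (0.01 to 0.59, limma adjusted p = 0.153). Whether the NDC80 and MIS12 complexes differ in their response was not tested.

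Knl1, the scaffold whose repeats are phosphorylated by Ttk and then bind Bub1 and Bub3, differed by 0.38 (95% interval 0.08 to 0.68, limma adjusted p = 0.0813), and passed without control 3 (difference 0.48, limma adjusted p = 0.042). Zwint, a partner of Knl1 that helps recruit the RZZ complex, read 12.12, 12.07 and 11.93 in shSep15 cells, against 12.31, 12.21 and 12.21 in control cells. All shSep15 arrays lay lower, by a small margin, and the difference of -0.20 did not pass (SE 0.06, limma adjusted p = 0.0542).

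**Figure D4:**
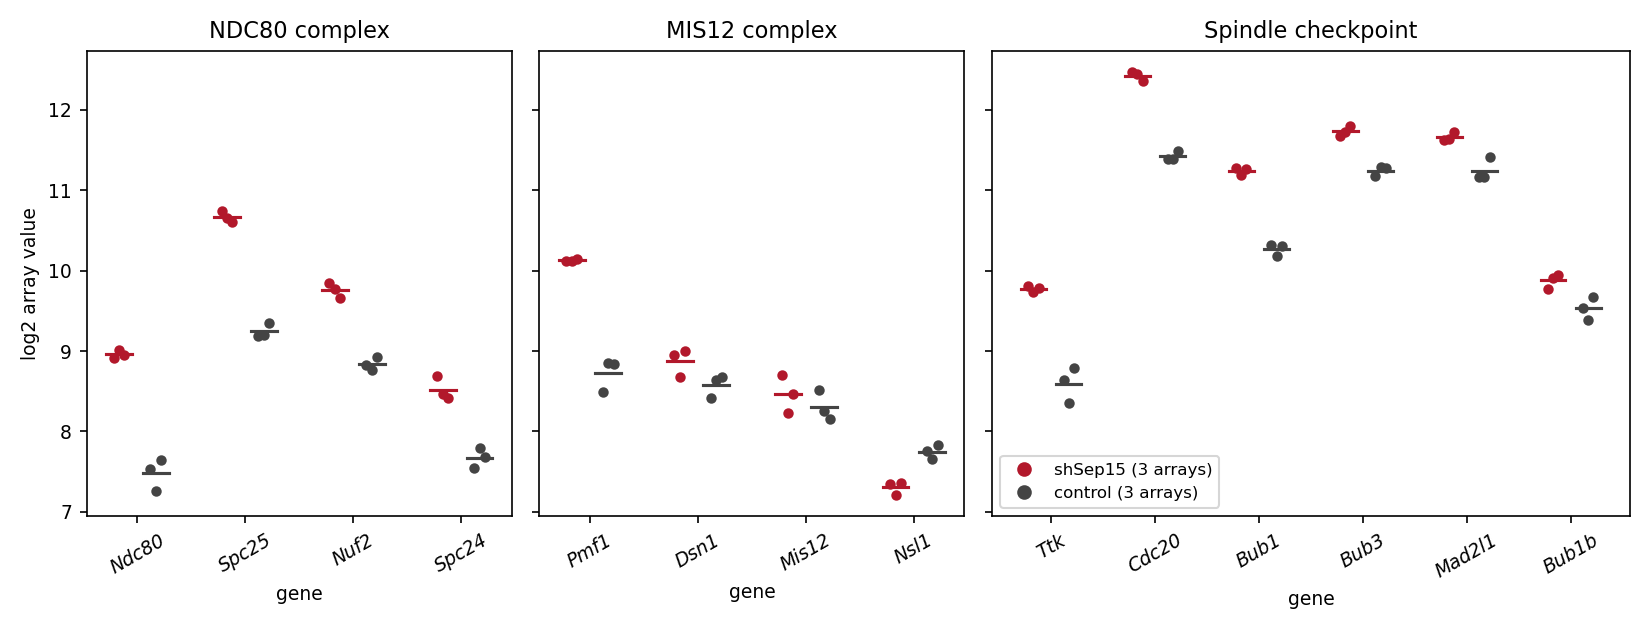
Log2 array values (y axis) of the subunits of the NDC80 complex, the MIS12 complex and the spindle checkpoint on each shSep15 array (red, left of each pair) and each control array (grey, right); short lines are group means. The 4 NDC80 subunits and the 6 checkpoint genes lie higher on every shSep15 array than on any control array, while of the MIS12 complex Pmf1 and (by a narrow margin) Dsn1 lie higher, Nsl1 lies lower and Mis12 overlaps.

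Both members of the fibrous corona rose. Cenpe, a kinesin that carries chromosomes toward the microtubule plus end, read 10.65, 10.74 and 10.46 in shSep15 cells, against 9.21, 8.72 and 9.45 in control cells (1.49, SE 0.17, limma adjusted p = 0.000304). Control 2 was the lowest of its group, and the gap between the groups was wider than that spread. A dimmer Cenpe probe set gave 2.09 (SE 0.18, limma adjusted p = 6.65e-05). Cenpf, a large coiled-coil protein of the corona that binds Nde1, rose by 0.76 (SE 0.15, limma adjusted p = 0.00638), with control 2 again the lowest at 9.38, against 9.86 and 10.00 on the other control arrays.

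All 6 spindle checkpoint genes rose, by 0.35 to 1.18, with a median of 0.73. Ttk, the kinase (MPS1) that starts checkpoint signalling, read 9.81, 9.73 and 9.78 in shSep15 cells, against 8.64, 8.35 and 8.79 in control cells (1.18, SE 0.13, limma adjusted p = 0.000198). Cdc20, the checkpoint's target, read 12.47, 12.44 and 12.36 in shSep15 cells, against 11.39, 11.39 and 11.49 in control cells (1.00, SE 0.06, limma adjusted p = 8.05e-06). The 2 dimmer Cdc20 sets above background gave 1.10 and 1.18. Bub1, the kinase that marks centromeric histone H2A and so recruits shugoshin, was at 11.24 ± 0.05 in shSep15 cells and 10.27 ± 0.08 in control cells (SD, n = 3 each; difference 0.97, limma adjusted p = 3.04e-05). The promoters of Ttk, Cdc20 and Bub1, printed above, each hold CHR letters near the start and CCAAT boxes before it.

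The 3 remaining checkpoint genes encode the inhibitors that bind Cdc20 or carry them to Knl1, and their rises were smaller. Bub3, the partner of Bub1 and Bub1b, rose by 0.49 (SE 0.07, limma adjusted p = 0.00074), and Mad2l1, which binds Cdc20 directly, by 0.41 (SE 0.08, limma adjusted p = 0.00666). Bub1b (BUBR1) read 9.77, 9.91 and 9.95 in shSep15 cells, against 9.53, 9.39 and 9.67 in control cells, and rose by 0.35 (SE 0.10, limma adjusted p = 0.0462). The groups of Bub1b were close, and the call ended without any 1 of shSep15 1, 2 and 3 and control 1 and 2 (limma adjusted p = 0.0569, 0.138, 0.162, 0.104 and 0.148). Cenpj shares the name but is a protein of centriole assembly; it differed by 0.13 (95% interval -0.18 to 0.44) with overlapping groups.

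Probe sets of a gene can read different transcripts. Of the 9 members that rose and had other probe sets above background, 6 (Cenpp, Pmf1, Cenpe, Cenpf, Bub3 and Cdc20) had all of them called higher. In the other 3 (Cenpa, Cenpu and Bub1b) the other set differed by 0.39, 0.32 and 0.40 and did not pass. The brightest sets of Cdc20 and Pmf1 are of the type in which some probes can bind other transcripts, and their other sets above background rose as well. The members lie on 17 chromosomes, and those that rose on 14. On chromosomes 3, 4, 17, 18 and X, where 18.8% of 3910 genes were higher and 10.8% lower, lay 6 members, of which 5 rose. These chromosomes were set apart with earlier results of these data known. Of the 29 members elsewhere, where 10.4% of 14283 genes were higher and 13.3% lower, 18 rose and 1 fell, with a median of 0.72.

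Related genes outside the 35 were taken from lists of the same pathways, in all 110 measured genes, of which 60 rose and 14 fell (51 and 8 without shSep15 3, 57 and 14 without control 3). The count of 14 was also 8 without shSep15 2 or control 2. The medians below stand against 0.01 over all genes. Over all genes 12.2% were called higher and 12.8% lower. The nearer comparison for the counts is the genes above background, where 19.3% were higher and 19.8% lower, since 109 of the 110 lay above it. The 3 inner kinetochore subunits outside the members all rose on their brightest probe sets: Cenps by 1.26, its partner Cenpx by 0.91 and Itgb3bp (CENP-R) by 0.84. For Itgb3bp the mean over all its probe sets differed by 0.12 and did not pass (limma adjusted p = 0.258). With Cenps and Cenpx, all 4 genes of the CENP-TWSX group rose. The chromosomal passenger complex and shugoshins, which correct wrong attachments and guard centromeric cohesion, rose in 7 of 7 (median 1.14). Haspin, the histone H3 kinase that places the complex, rose by 1.74 (SE 0.19, limma adjusted p = 0.000231), the shugoshin Sgo2a by 1.34, the kinase Aurkb by 1.19 and its partner Birc5 by 1.14.

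Other corona genes rose in 6 of 11 and fell in 2 (median 0.44). Mad1l1, which brings Mad2l1 to the kinetochore, rose by 1.20 (SE 0.12, limma adjusted p = 0.000113), the dynein adaptor Spdl1 by 0.77 and the RZZ subunits Zwilch and Kntc1 by 0.76 and 0.63. The dynein regulators Ndel1 (-0.60) and Pafah1b1 (-0.35) fell on their brightest probe sets; over the mean of their sets neither passed, at -0.41 and 0.13 (limma adjusted p = 0.0544 and 0.32). Among 10 genes of the SKA complex and of microtubule attachment, 4 rose and 1 fell (median 0.13). The microtubule depolymerase Kif2c rose by 1.37 and the SKA subunits Ska1 and Ska3 by 0.90 and 0.84. The dynein heavy chain Dync1h1 fell by 0.75, but by 0.20 over the mean of its sets (limma adjusted p = 0.15). Of 8 measured genes that load CENP-A or handle centromeric chromatin, all above background, 2 rose (25%) and 1 fell, with a median of 0.09. Among all genes above background 19.3% rose and 19.8% fell, so these counts are near that background. Mis18a (0.60) and Rbbp7 (0.26) rose and Rnf2 (-0.54) fell. The call of Mis18a ended without shSep15 3 (limma adjusted p = 0.0517), that of Rnf2 without shSep15 2 or control 2 (0.0553 and 0.0508).

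Downstream of the checkpoint, most substrates of the anaphase-promoting complex rose, and the calls among its own genes went both ways. Of 18 genes of the complex with its activators and E2 enzymes, all above background, 5 rose (27.8%) and 5 fell (median 0.17). Without shSep15 3 or control 2, 3 rose and 3 fell, and without shSep15 1 or 2, 3 rose and 4 fell. Among all genes above background 19.3% rose and 19.8% fell, so these counts are near that background. The late activator Fzr1 rose by 0.95 (SE 0.11, limma adjusted p = 0.000251) and the E2 enzyme Ube2c by 0.80, while the core subunits Anapc16 (-0.53) and Cdc23 (-0.50) fell. The call of Cdc23 ended without any 1 of shSep15 1, 2 and 3 and control 1 and 2 (limma adjusted p from 0.0523 to 0.148). Of 13 substrates, 11 rose and 0 fell (median 0.89). Thymidine kinase Tk1 rose by 2.49, the inhibitor Fbxo5 (EMI1) by 1.79, the replication inhibitor Gmnn by 1.69 and the kinase Plk1 by 1.35. Among 9 genes that silence the checkpoint, 4 rose and 1 fell (median 0.19), but 2 rose without any 1 of shSep15 1, 2 and 3 or without the intensity trend in the fit. Mad2l1bp, which takes Mad2l1 off Cdc20, rose by 0.73 and the phosphatase subunit Ppp2r5d by 0.55, while the subunit Ppp2r5a fell by 0.75. The rise of Ppp2r5c by 0.42 was lost without any 1 of shSep15 1, 2 and 3 and control 1 and 2 (limma adjusted p from 0.0643 to 0.133), and over the mean of its probe sets the difference was 0.14 (limma adjusted p = 0.282). The phosphatase Ppp1cc, named after its values were seen, rose by 0.19, a call that ended without any 1 of shSep15 1, 2 and 3 and control 2 and 3 (limma adjusted p from 0.0589 to 0.111) and without the trend (0.162).

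The kinetochore genes moved beside other readouts of cell division. Of 16 proliferation genes 13 rose and 0 fell, with a median of 0.91. Without shSep15 1, 2 or 3, the count that rose was 11, 10 and 11. Named after the values were seen, Pcna, Mcm2 and E2f1 were not called, and Mki67 rose by 0.64. The call of Mki67 ended without shSep15 1, 2 or 3 (limma adjusted p = 0.0781, 0.109 and 0.0565). Cyclin Ccne2 rose by 2.36, the licensing factor Cdc6 by 2.17, the helicase subunit Mcm4 by 1.34 and cyclin Ccne1 by 1.17. The part of a different share of dividing cells in the differences of the 35 members was not tested.

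**Figure D5:**
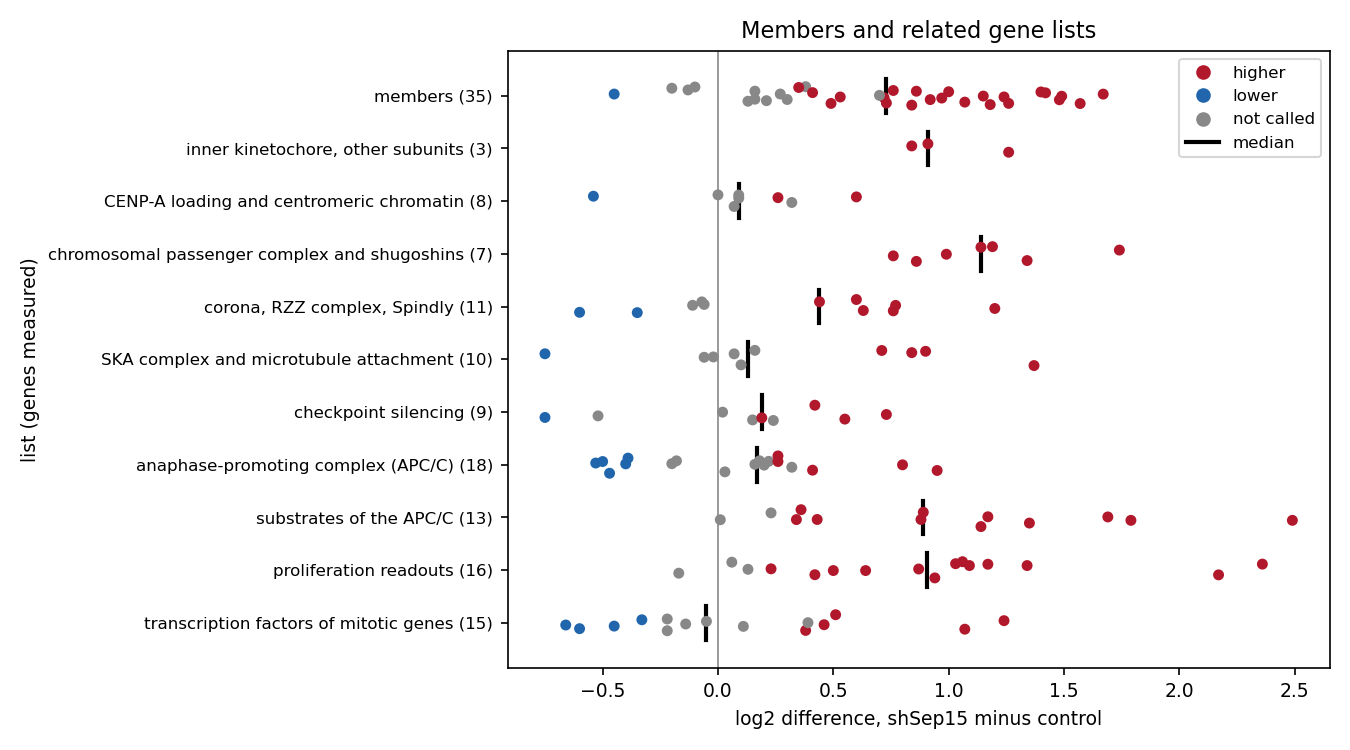
Log2 difference between shSep15 and control cells (x axis) of each gene in the 35 members and in the related lists (y axis, number of genes measured in brackets), coloured by call; black bars are medians. The passenger complex (median 1.14) and the substrates of the anaphase-promoting complex (0.89) lie to the right like the members (0.73), whereas the anaphase-promoting complex itself is spread on both sides of 0 (0.17).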

How the data were processed

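Per the labels' protocols, TRIzol was used to extract RNA of 3 shSep15 and 3 control samples of CT26 cells, and biotin-labelled cRNA was hybridised to Affymetrix Mouse430_2 arrays. The values deposited by the authors are on a log2 scale and come from RMA (background correction, normalization between arrays, summary of probes), per the submitters' processing notes; which version was run, and any filtering, is not given in the sources used here. Such normalization hides a change of total RNA per cell, and dim probe sets are compressed toward 0. Depth has no meaning for arrays, and 3 arrays per group limit the precision.

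The table has 45101 probe sets; 64 are array controls and the 45037 others were tested with limma 3.58.1 in R 4.3.3 (lmFit, eBayes with an intensity trend, group as the only term), adjusted over all 45037. The method was tested on simulated data. Probe sets with 1 symbol in the platform annotation (34945) were named; 34741 were found by gene identifier in the RefSeq table of GRCm38.p6, which served for symbols, chromosomes and promoters. The 80 receptor probe sets gave the background level. Genes were named by rule: every member, and of each related list up to 4 called genes of greatest difference plus those called against the majority. The members, lists and tests were chosen with earlier results of these data known, so no list was tested as a set. Alternatives were eBayes without trend, a replicate block, arrays shifted to 1 median, the mean of a gene's probe sets, only probe sets above background, each array left out, and members of some chromosomes left out. The motif comparison with genes above background and the count of members with agreeing probe sets were chosen after seeing the data.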

Additional observations from a re-analysis of the deposited data

How the results depend on the processing

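The number of members called higher (23) changed little: it was 23 without the eBayes trend, with the replicate block or with the mean of a gene's probe sets, 22 with arrays shifted to the same median, 26 when only probe sets above background were tested, 18 of the 29 members outside chromosomes 3, 4, 17, 18 and X, and 20 when every probe set above background had to be called higher. Leaving out 1 array gave 20 to 23 higher and 0 to 1 lower members, a median of 0.60 to 0.83 against 0.73, and 51 to 57 higher and 8 to 14 lower genes of the related lists, against 60 and 14. The count of members called lower, 1, was 2 with the replicate block, where Zwint passed (limma adjusted p = 0.0345), 2 when only probe sets above background were tested, and 0 with the mean of a gene's probe sets. That mean gave a median of 0.62 and 9 lower genes in the related lists, and turned Pafah1b1 to 0.13; the cause was not tested. Testing only probe sets above background brought in Cenpl, Cenpq and Knl1 as higher, with fewer tests to adjust for. Of 385 values of members under the alternatives, 359 kept their side of the threshold. Another 18 (of Cenpc1, Cenpu, Nsl1 and Bub1b) lost the call and 8 (of Cenpl, Cenpq, Knl1 and Zwint) gained it. Among values called in either fit 0 reversed direction, and values called in neither were not compared by direction. The titles do not say if the repeat numbers pair the arrays. Deviations from the group means correlated at 0.38, -0.15 and -0.02 between arrays of the same number. Between arrays of unlike number the correlations ran from -0.362 to 0.367. The block called 4591 genes, against 4543 without it. With so few arrays these values cannot settle if the arrays are paired. Precision is limited by 3 arrays per group and by the compression of dim signals, which touches Cenpp.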

Other observations

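Of 15 measured regulators of mitotic transcription, all above background, 5 rose and 4 fell, with a median of -0.05. Among all genes above background 19.3% rose and 19.8% fell, so these counts are near that background. Without shSep15 2 or 3, 4 rose and 0 fell, and without control 1 or 2, 4 rose and 1 fell. Mybl2, the MuvB partner that acts in S phase, rose by 1.24 (SE 0.18, limma adjusted p = 0.00107) and the pocket protein Rbl1 by 1.07 (limma adjusted p = 5.57e-05). Foxm1, the factor that joins MuvB at CHR promoters before mitosis and singled out after its values were seen, was at 10.20, 10.11 and 10.13 in shSep15 cells and 9.91, 10.01 and 10.19 in control cells, overlapping groups (0.11, limma adjusted p = 0.517). The NF-Y subunit Nfyc, also named after its values were seen, rose by 0.51 (limma adjusted p = 0.00327). The CHR-binding subunit Lin54 fell by 0.66 and the other NF-Y subunits Nfyb and Nfya by 0.60 and 0.45. Tfdp2, a dimer partner of E2F factors, fell by 0.33. The 4 lower calls depended on the arrays: that of Nfyb ended without shSep15 2 or 3 (limma adjusted p = 0.0567 and 0.0662), those of Lin54 and Nfya without shSep15 2 or 3 or control 1 or 2 (0.057 to 0.0986 and 0.0699 to 0.102), and that of Tfdp2 without any 1 of the 6 arrays (0.0589 to 0.142). Over the mean of a gene's probe sets Lin54 differed by -0.26 (limma adjusted p = 0.244) and Tfdp2 by -0.00 (limma adjusted p = 0.997).

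Zwint had 7 probe sets, more than any other member, and they did not move as 1. Of the 6 above background, 1 fell (log2 -0.75, SE 0.17, limma adjusted p = 0.014), reading 8.09, 7.61 and 7.68 in shSep15 cells and 8.84, 8.48 and 8.32 in control cells. The other 5 differed by -0.20 to 0.24 and were not called.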
